A study of Homo sapiens with 14 samples.

Results

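Messenger RNA of 40 genes that act in mitosis and at the G2/M transition was followed in mouse xenografts of UMUC3, an established line of human bladder cancer. The 40 genes were taken by symbol from a fixed list, out of 61229 gene symbols in the deposited tables. All 40 passed the filter on low counts and were among the 22435 genes tested. The RNA libraries fell into 4 groups that share the cell line and the mouse host. The groups were tumours of control cells (with a control shRNA, per the titles) from regular medium (n = 3), tumours of FASN knockdown cells from regular medium (n = 3), and tumours of the same 2 kinds of cells pre-exposed to 10% CSM before engraftment (n = 4 each). CSM is the smoke condition of the sample titles, and it was applied to the cells, not to the mice, per the labels. How FASN was knocked down, how many clones or animals were used and how old the mice were is not given in the labels, and UMUC3 stands for 1 tumour line only.

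A cell enters mitosis when CDK1, bound to cyclin A or cyclin B and freed of its inhibitory phosphates by CDC25 phosphatases, reaches full activity. PLK1 and the Aurora kinases then mature the centrosomes and build the spindle, kinesins slide and sort its microtubules, and kinetochores assembled on CENPA chromatin attach the chromosomes to it. The spindle checkpoint holds back the anaphase-promoting complex until all chromosomes are attached, after which CDC20 and UBE2C drive the destruction of cyclin B and securin and separase opens the cohesin rings. Transcription of most of these genes peaks in G2 and M under the MuvB complex with B-MYB and FOXM1, and is held down in resting cells by the DREAM complex, so that in tissue their summed messenger RNA is commonly read as a sign of dividing cells.

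The libraries held 15810287 to 45209466 summed counts. Between 2.64% and 25.6% of them fell on 7SL, the RNA of the signal recognition particle, with the highest shares in FASN knockdown replicate 2 (25.6%) and control after CSM replicate 3 (16.3%). FASN, the fatty acid synthase gene targeted by the knockdown, read 571, 404 and 379 CPM (counts scaled to a common TMM total) in control tumours and 121, 99.9 and 132 CPM in knockdown tumours from regular medium, with no overlap and a log2 fold change of -1.94 (SE 0.33) (edgeR quasi-likelihood test, adjusted p = 0.0242). Leaving out any 1 of these 6 libraries gave an adjusted p between 0.0538 and 0.135. After CSM it read 456, 479, 423 and 366 CPM in control tumours and 219.7, 166, 301 and 479 CPM in knockdown tumours, a log2 fold change of -0.56 (SE 0.28) with an adjusted p of 0.288. The library labelled FASN knockdown after CSM replicate 4 therefore carried FASN at the level of the controls, against its label. Without it the FASN log2 fold change after CSM was -0.90 with an adjusted p of 0.107 in edgeR's test, and the counts and the genes with the smallest p after CSM are given with and without it. In every knockdown library after CSM, FASN lay above every knockdown library from regular medium, at a log2 fold change of 1.31 (SE 0.31). This was not called (edgeR quasi-likelihood test, adjusted p = 0.562). Nor was the difference between the FASN knockdown effects in both media, at 1.38 (SE 0.42, adjusted p = 0.942). The knockdown comparison after CSM thus rested on a smaller fitted FASN reduction, whose part in the results was not tested. Among the urothelial markers KRT20 and UPK3A had no count, UPK2 and EPCAM averaged 0.030 and 0.013 CPM, whereas the keratins KRT8 and KRT18 averaged 93.3 and 145 CPM. KRT5, PPARG, UPK1B, KRT7, FOXA1 and GATA3 averaged 4.47, 3.65, 2.49, 2.21, 1.97 and 1.10 CPM, and CDH1 and UPK1A 0.57 and 0.21 CPM. VIM, a mesenchymal marker kept in the same list, averaged 2002 CPM. Markers of host cells, read through human transcripts, summed per library to 39.97 to 92.5 CPM for 13 fibroblast genes, 30.9 to 93.3 for 9 endothelial genes, 52.4 to 128 for 11 myeloid and leukocyte genes and 0.44 to 3.06 for 6 adipocyte genes. Few genes, named after their values were seen, carried the first 3 sums. The fibroblast genes COL5A1, ACTA2 and THY1 averaged 26.4, 18.1 and 11.8 CPM, followed by COL6A3 at 3.96 CPM. The endothelial gene ENG averaged 54.9 CPM, followed by ESAM at 1.83 CPM. The myeloid gene CD68 averaged 74.98 CPM, followed by LYZ at 7.64 CPM. COL1A2, PECAM1 and PTPRC averaged 0.15, 1.06 and 0.77 CPM. Which cells these RNAs came from was not tested. After CSM 1 of the 10 fibroblast genes tested, THY1 (named after its values were seen), was called lower in the knockdown. Over all genes tested 0.758% were called lower in this comparison. THY1 had a log2 fold change of -1.64 (edgeR quasi-likelihood test, adjusted p = 0.0400) and overlapping groups. The part of host cells in the results was not tested. Mouse transcripts are not part of the tables, so how many mouse reads were assigned to the conserved mitotic genes was not measured.

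The promoters of these genes are known for a pair of short elements, the CCAAT box bound by NF-Y and the cell cycle homology region with the letters TTTGAA that the MuvB complex reads. The RefSeq promoter table (GRCh38.p14, from 250 bases before to 50 after each start) held 33 of the 40 genes, with 42 windows. CCAAT on either strand was found for 28 of 33 genes (84.8%) against 39.7% of 27305 genes in the table, TTTGAA on either strand for 23 (69.7%) against 18.2%, and both for 20 (60.6%) against 7.26%. The TTTGAA matches lay close to the start, 22 of 31 within 50 bases of it, whereas the median CCAAT match began 85 bases before it. Below are the 250 bases before and 20 after the start for the 4 genes with the smallest p-values between knockdown and control after CSM, and for MKI67, whose values ran the other way. Capitals mark CCAAT and TTTGAA, or their reverse complements. The windows are chr2:26785806-26786075 on the plus strand for CENPA, chr15:59104896-59105165 on the plus strand for CCNB2, chr4:121823864-121824133 on the minus strand for CCNA2, chr4:120066829-120067098 on the minus strand for MAD2L1 and chr10:128126404-128126673 on the minus strand for MKI67.
CENPA: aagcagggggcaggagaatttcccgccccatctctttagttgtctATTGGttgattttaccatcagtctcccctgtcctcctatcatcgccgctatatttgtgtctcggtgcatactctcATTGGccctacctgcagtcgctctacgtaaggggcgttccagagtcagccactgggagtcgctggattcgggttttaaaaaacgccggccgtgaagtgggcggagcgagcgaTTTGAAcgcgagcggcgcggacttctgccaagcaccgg
CCNB2: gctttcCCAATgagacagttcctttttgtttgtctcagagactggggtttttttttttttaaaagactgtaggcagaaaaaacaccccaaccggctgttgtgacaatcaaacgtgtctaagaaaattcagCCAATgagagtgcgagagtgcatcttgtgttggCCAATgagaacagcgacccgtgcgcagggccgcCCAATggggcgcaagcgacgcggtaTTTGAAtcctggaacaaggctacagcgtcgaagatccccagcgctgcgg
CCNA2: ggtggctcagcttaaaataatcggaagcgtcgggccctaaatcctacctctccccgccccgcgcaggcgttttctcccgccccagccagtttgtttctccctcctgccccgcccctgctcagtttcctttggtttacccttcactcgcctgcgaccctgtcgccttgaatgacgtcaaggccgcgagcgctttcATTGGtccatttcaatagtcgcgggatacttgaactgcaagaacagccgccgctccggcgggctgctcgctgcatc
MAD2L1: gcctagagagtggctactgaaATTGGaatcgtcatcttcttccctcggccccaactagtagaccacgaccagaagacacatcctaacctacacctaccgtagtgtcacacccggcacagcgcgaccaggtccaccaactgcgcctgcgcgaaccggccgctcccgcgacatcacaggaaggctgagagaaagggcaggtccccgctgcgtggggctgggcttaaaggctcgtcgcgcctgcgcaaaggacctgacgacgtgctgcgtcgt
MKI67: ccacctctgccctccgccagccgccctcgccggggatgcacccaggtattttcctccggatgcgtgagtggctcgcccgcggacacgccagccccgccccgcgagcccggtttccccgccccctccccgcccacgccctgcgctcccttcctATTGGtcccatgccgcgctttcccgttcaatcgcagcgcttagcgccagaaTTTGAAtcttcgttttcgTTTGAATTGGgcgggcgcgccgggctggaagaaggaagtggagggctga
CCNB2 held 4 CCAAT matches in a row, and a TTTGAA starting at base -29. In CENPA the TTTGAA began at base -18. CCNA2 had a single CCAAT match, at base -56, and no TTTGAA in the window. The TTTGAA match of MAD2L1 lay at base 24 after the start, outside the printed stretch. MKI67, with 2 matches of each motif, carried the same pair of elements as CENPA and CCNB2. These are matches of letters, counted with no test.

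Compared per transcript length, in TPM (Salmon's length-scaled abundance), the 40 genes spanned a 39.2-fold range of mean level over the 14 libraries. UBE2C, the ubiquitin-conjugating enzyme of the anaphase-promoting complex, stood highest at 166 ± 67.2 TPM (SD, n = 14) and ranked first in 12 libraries. PTTG1, or securin, followed at 107 ± 31.2 TPM and was above UBE2C in the other two, so that the order of these neighbours is within their spread. CDC25B (86.8 ± 44.2 TPM), BUB3 (85.5 ± 28.6 TPM), MKI67 (57.95 ± 29.6 TPM) and CDC20 (57.5 ± 28.96 TPM) came next, each within 1 SD of the next. At the low end stood CENPE, the kinetochore motor, at 4.24 ± 2.03 TPM and last in 9 libraries, then SPC25, ASPM and CCNA2 at 7.20, 7.35 and 7.46 TPM. In all, 25 genes averaged over 20 TPM and 7 under 10 TPM. CDK1, the kinase at the centre of the programme, was among the low ones at 9.77 ± 2.92 TPM. TPM is a share of all transcripts, and 7SL took 17.9% to 69.1% of it per library, so that these levels carry that spread as well.

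Across the 40 genes 2 libraries held most of the extreme values. Summed up as the mean log2(CPM + 1) over the 40 genes, control tumours read 5.80, 5.72 and 6.12, knockdown tumours 6.03, 6.07 and 5.48, control tumours after CSM 6.09, 6.16, 6.52 and 6.08, and knockdown tumours after CSM 5.65, 5.91, 5.64 and 6.00. On this CPM scale the 4 control libraries after CSM thus all lay above the 4 knockdown libraries after CSM, while the groups from regular medium overlapped. In summed TPM of the 40 genes the groups after CSM overlapped, at 1506, 1557, 859 and 1319 in control and 1846, 1100, 1593 and 2086 in knockdown tumours. Control after CSM replicate 3, a library with 16.3% 7SL, had the highest CPM of all 14 libraries for 28 of the 40 genes. FASN knockdown replicate 3 had the lowest CPM of all 14 for 16 genes and the lowest of its group for 29. MKI67, which encodes the Ki-67 protein coating mitotic chromosomes, did the reverse in both of these libraries, at 279 CPM in the first, its lowest value, and 744 CPM in the second, its highest. Control replicate 2 had the lowest value of all 14 for 7 genes and FASN knockdown after CSM replicate 1 for 6.

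**Figure D1:**
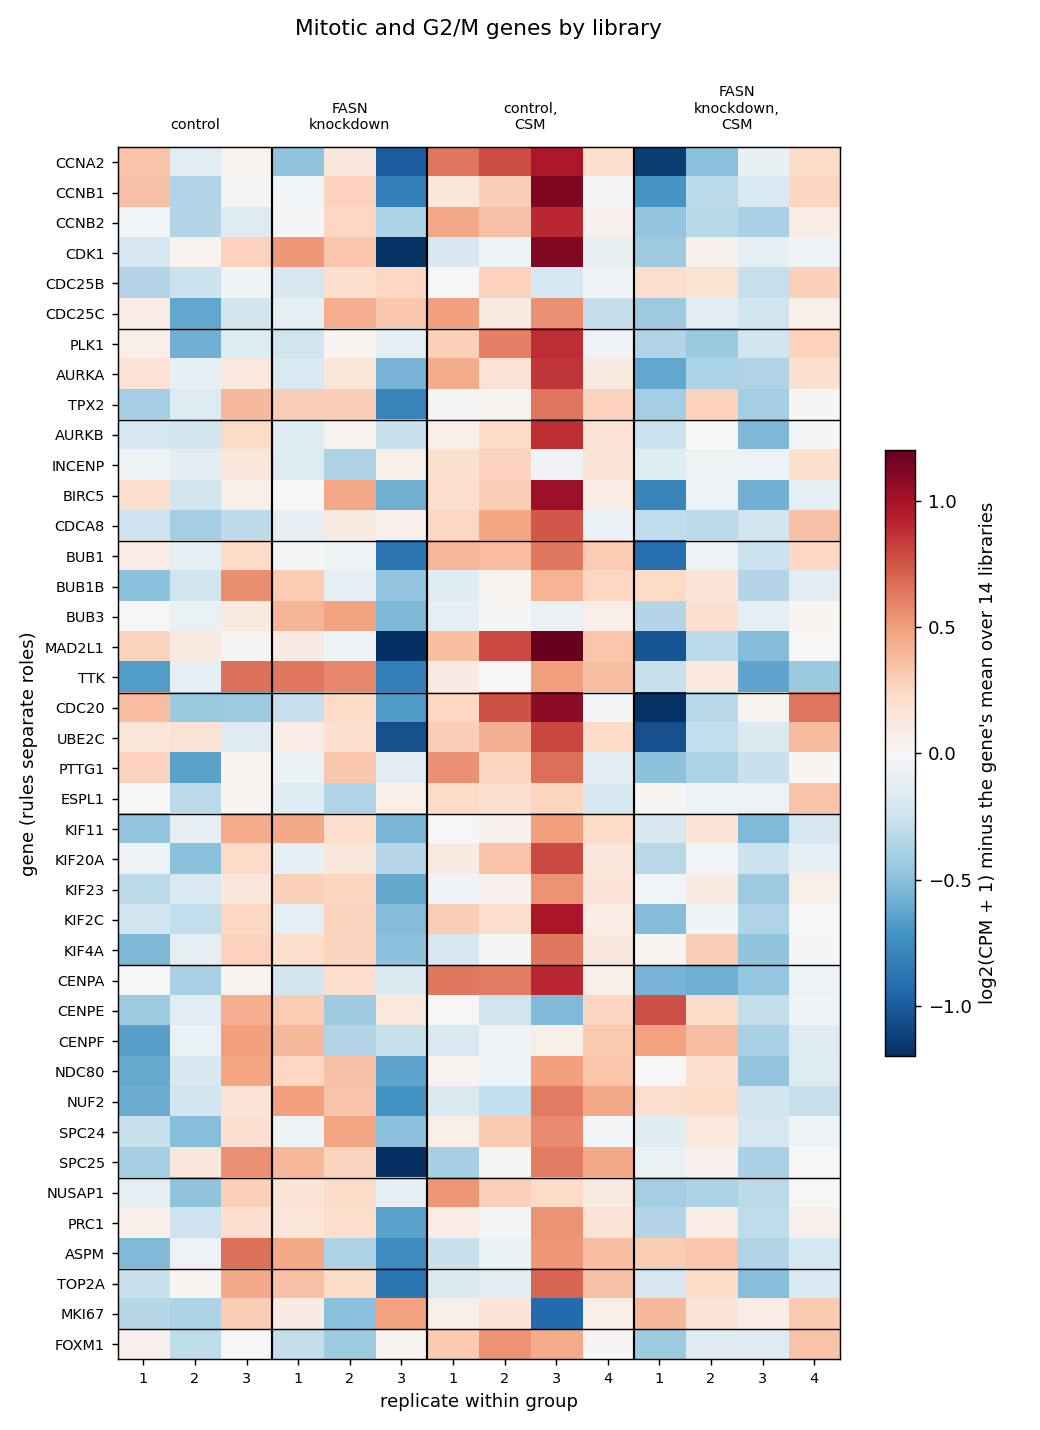
Each row is a gene and each column a library (replicate number below, group above). Colour gives log2(CPM + 1) minus the gene's mean over the 14 libraries, red above and blue below it, and horizontal rules separate the functional groups. Control after CSM replicate 3 is red for most genes but blue for MKI67, and FASN knockdown replicate 3 is blue for most genes but red for MKI67.

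After CSM, 36 of the 40 mitotic genes had a lower fitted level in FASN knockdown than in control tumours, and for 1 of them the difference passed the test. CENPA was the only gene called (edgeR quasi-likelihood test, Benjamini-Hochberg adjusted p below 0.05), lower in the knockdown, where 0.758% of all genes tested were called lower and 1.2% in either direction. DESeq2 called 4, CENPA, MAD2L1, CCNB2 and CCNA2, all lower, where it called 1455 of 22435 genes in either direction. In edgeR, 6 of 8 fits that each left out 1 library called none. At an unadjusted p below 0.05, 16 of the 40 were lower, against 9.34% of all genes, and none was higher, against 9.19%. The median log2 fold change was -0.43, with 36 of 40 below 0, beside a median of 0.01 and 49.6% below 0 over all genes tested. This direction depends on the scale. On log2(TPM + 1), where the median of all genes was itself 0.39, the members' median was 0.32 with 5 of 40 below 0, which is 0.07 below that of all genes (-0.07). With TPM rescaled to protein-coding genes, the members' median was 0.03 and that of all genes 0.19. In 8 genes the values of the groups did not overlap, with the knockdown lower, against 7.31% of all genes, and none had the knockdown higher, against 8.85%. The 8 were AURKB, BIRC5, BUB1, MAD2L1, KIF20A, KIF2C, CENPA and NUSAP1. Without the library labelled knockdown replicate 4, 18 genes had an unadjusted p below 0.05 and the median was -0.47. The share of all genes at that p in this fit is not given here. The log2 fold changes were then -1.17 for CENPA, -1.47 for MAD2L1, -0.89 for CCNB2 and -1.23 for CCNA2, and CENPA alone was called. Without control after CSM replicate 3 the count was 7 and the median -0.30. In that fit 2892 of 22352 genes had an unadjusted p below 0.05 in either direction, against 4157 of 22435 with all libraries. In such bulk libraries, fewer dividing cells and less of each RNA per dividing cell cannot be told apart.

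**Figure D2:**
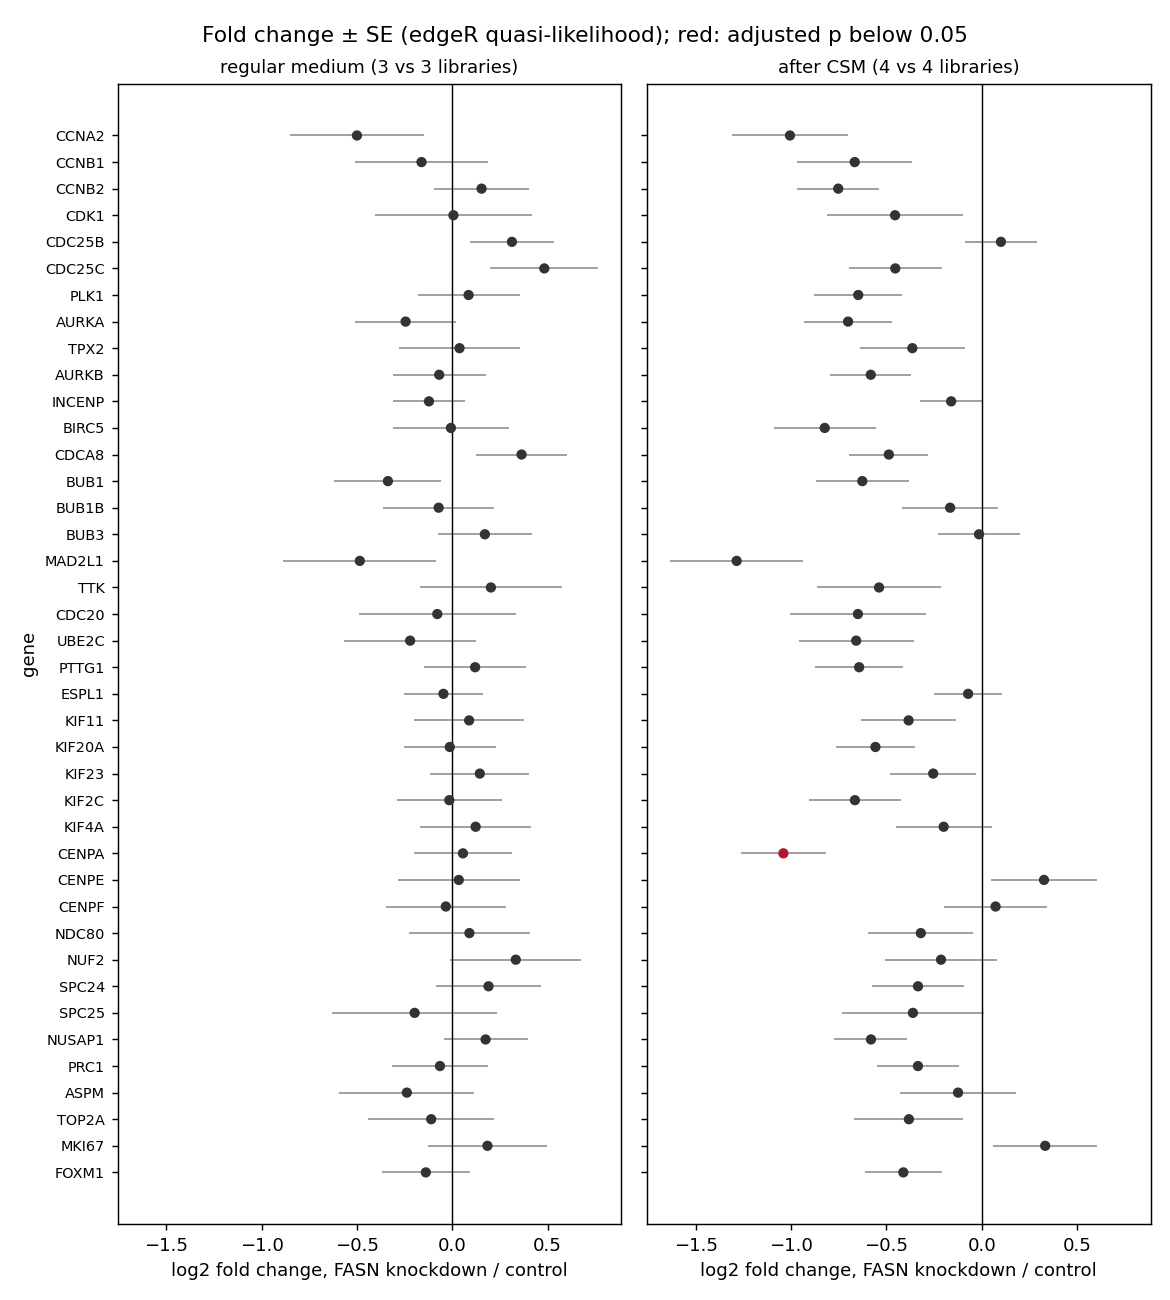
Points are the fitted log2 fold changes of the 40 genes, FASN knockdown over control, and bars 1 SE, for regular medium on the left and after CSM on the right. After CSM 36 points lie below 0 and CENPA (red) passes the threshold. In regular medium 20 lie below 0 and none passes.

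CENPA, the histone H3 variant that marks the centromere and on which the kinetochore is built, read 27.4, 27.1, 33.3 and 18.2 CPM in control tumours after CSM and 11.5, 11.2, 12.3 and 16.5 CPM in knockdown tumours after CSM. Every control value was above every knockdown value, with the lowest control at 18.2 CPM and the highest knockdown value, in the library labelled replicate 4, at 16.5 CPM. The fitted log2 fold change was -1.04 (SE 0.22), with an adjusted p of 0.0385 in the edgeR quasi-likelihood test. It stayed below 0 in all 22 alternative analyses and was called in 9 of them, but it shrank to -0.30 on log2(TPM + 1), -0.32 on log2(TPM + 0.1) and -0.61 on TPM of protein-coding genes, where it was not called. Of the 8 fits that each left out 1 library, only those without control replicate 4 (adjusted p = 0.0322) and without knockdown replicate 4 (adjusted p = 0.0413) kept the call, and over the 8 the log2 fold change ran from -1.17 to -0.90 and the adjusted p up to 0.12498. From regular medium the gene read 17.2, 12.98 and 17.9 CPM in control and 14.7, 20.2 and 15.2 CPM in knockdown tumours, a log2 fold change of 0.06 (SE 0.26), and the groups overlapped. Both groups from regular medium therefore lay between the 2 groups after CSM in their means, which were 16.02 ± 2.65 and 16.7 ± 3.01 CPM (SD, n = 3) against 26.5 ± 6.24 and 12.9 ± 2.46 CPM (SD, n = 4).

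The other 6 genes of the centromere and kinetochore had fold changes nearer to 0 than CENPA, and none passed the test. CENPE, the motor that carries chromosomes to the spindle equator, read 29.3, 24.5, 19.9 and 34.99 CPM in control and 50.5, 34.2, 23.7 and 28.1 CPM in knockdown tumours after CSM, with overlap and a log2 fold change of 0.33 (SE 0.28). CENPF, a large protein of the outer kinetochore, gave 0.07 (SE 0.27). The 4 subunits of the NDC80 complex, which grips microtubule ends, gave log2 fold changes of -0.32 for NDC80, -0.21 for NUF2, -0.33 for SPC24 and -0.36 for SPC25, all with overlapping groups. Among the 7 genes of this class 5 were below 0, and only CENPA had an unadjusted p below 0.05.

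Among the genes of mitotic entry, the cyclins had the fold changes farthest below 0 after CSM, and none passed the test. CCNB2, a mitotic cyclin partner of CDK1, read 56.7, 52.4, 77.5 and 42.5 CPM in control and 29.1, 32.3, 30.9 and 43.6 CPM in knockdown tumours, and 1 knockdown library, the one labelled replicate 4, reached into the control range. Its log2 fold change was -0.75 (SE 0.21), and edgeR's quasi-likelihood test gave an adjusted p of 0.0916. CCNA2, cyclin A, read 38.9, 42.97, 49.02 and 28.2 CPM against 10.6, 17.04, 22.9 and 28.7 CPM, again with overlap only through replicate 4 of each group, for a log2 fold change of -1.01 (SE 0.31) and an adjusted p of 0.105. CCNB1, the main mitotic cyclin, read 57.1, 63.7, 114 and 50.9 CPM against 31.2, 41.2, 45.6 and 62.1 CPM. Its log2 fold change of -0.67 (SE 0.30) came with overlapping groups and with the single high value of control replicate 3. CDK1, the kinase itself, read 18.6, 20.5, 47.4 and 19.98 CPM against 15.6, 22.1, 19.5 and 20.5 CPM. Apart from that same control library the controls lay within the range of the knockdown values, and the log2 fold change was -0.45 (SE 0.36). The phosphatase genes CDC25B and CDC25C gave 0.10 (SE 0.19) and -0.45 (SE 0.24).

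The mitotic kinases also had fold changes below 0, short of the threshold. AURKA, the centrosomal Aurora kinase, read 63.7, 52.7, 85.1 and 50.3 CPM in control and 29.8, 35.6, 36.1 and 53.3 CPM in knockdown tumours after CSM, with a log2 fold change of -0.70 (SE 0.23) and an adjusted p of 0.130 in edgeR's quasi-likelihood test. PLK1, which drives centrosome maturation and mitotic entry, read 63.999, 80.3, 97.7 and 50.9 CPM against 40.6, 38.2, 44.5 and 63.6 CPM, a log2 fold change of -0.65 (SE 0.23). In both genes the library labelled knockdown replicate 4 was the highest of its group and lay above the lowest control. TPX2, the spindle factor that activates AURKA, gave -0.36 (SE 0.28).

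The 4 genes of the chromosomal passenger complex, which corrects faulty attachments and then moves to the midzone, were all below 0. BIRC5, or survivin, read 109, 116, 193 and 99.9 CPM in control and 53.8, 89.7, 62.8 and 86.5 CPM in knockdown tumours, with no overlap, a log2 fold change of -0.82 (SE 0.27) and an adjusted p of 0.127 in edgeR's quasi-likelihood test. AURKB, its kinase, read 50.4, 56.04, 88.4 and 53.6 CPM against 39.4, 47.4, 32.4 and 46.7 CPM, also without overlap, for -0.58 (SE 0.21). CDCA8, or borealin, gave -0.49 (SE 0.21) with overlap, and the scaffold INCENP -0.16 (SE 0.17).

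Among spindle checkpoint genes MAD2L1, the checkpoint protein that binds CDC20, had the largest fold change of the 40. It read 22.3, 30.4, 47.8 and 21.9 CPM in control and 7.84, 13.5, 11.7 and 17.2 CPM in knockdown tumours after CSM, and the groups did not overlap. The log2 fold change was -1.29 (SE 0.35), with an adjusted p of 0.0802 in edgeR's quasi-likelihood test. The checkpoint kinase BUB1 read 78.3, 76.7, 92.3 and 73.3 CPM against 31.2, 56.7, 49.3 and 70.4 CPM, without overlap, for -0.63 (SE 0.24). TTK, the kinase MPS1, gave -0.54 (SE 0.32), BUB1B, or BubR1, -0.17 (SE 0.25), and BUB3, the shared partner of BUB1 and BUB1B, -0.01 (SE 0.21), the smallest change of the 40.

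Of the genes that start anaphase, CDC20, the activator of the anaphase-promoting complex, read 122, 175, 216 and 101 CPM in control and 44.3, 80.7, 105 and 161 CPM in knockdown tumours after CSM. The knockdown values ran from below every control to above 2 of the 4 controls, and the log2 fold change of -0.65 (SE 0.36) had an unadjusted p of 0.0887. UBE2C gave -0.66 (SE 0.30) and PTTG1 -0.64 (SE 0.23), whereas ESPL1, the separase that PTTG1 holds inactive, gave -0.07 (SE 0.18). PTTG1 and KIF4A have near-identical copies elsewhere in the genome, so that the split of their counts is uncertain.

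The 5 mitotic kinesins were all below 0. KIF2C, which depolymerises microtubules at centromeres, read 86.3, 81.3, 139 and 74.999 CPM in control and 48.7, 67.7, 54.5 and 70.04 CPM in knockdown tumours, and KIF20A, needed for cytokinesis, 111, 131, 179 and 113 CPM against 81.4, 100.3, 85.8 and 95.5 CPM. Neither pair of groups overlapped, and the log2 fold changes were -0.67 (SE 0.24) and -0.56 (SE 0.21). KIF11, the motor that pushes spindle poles apart, gave -0.38, KIF23 of the central spindle -0.25 and the chromosome-bound KIF4A -0.20, with overlapping groups. Of the spindle microtubule proteins, NUSAP1 read 66.5, 55.98, 54.2 and 49.6 CPM against 34.02, 35.1, 36.4 and 45.8 CPM, without overlap, for a log2 fold change of -0.58 (SE 0.19). The midzone bundler PRC1 gave -0.33 and the spindle pole protein ASPM -0.12.

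TOP2A, the topoisomerase that untangles chromosomes, read 207, 214, 378 and 299 CPM in control and 202, 272, 163 and 205 CPM in knockdown tumours after CSM, with a log2 fold change of -0.38 (SE 0.29). MKI67 read 562, 592, 279 and 563 CPM against 696, 591, 565 and 663 CPM, a log2 fold change of 0.33 (SE 0.27). Apart from the low control replicate 3, the control values of 562 to 592 CPM overlapped those of the knockdown. FOXM1, the transcription factor of the G2/M genes, read 176, 205, 192 and 142 CPM against 105, 127, 127 and 178 CPM, for -0.41 (SE 0.20). Its highest knockdown value was again that of the library labelled replicate 4. CENPE, MKI67, CDC25B and CENPF were the 4 genes with a fold change above 0, and none of them had an unadjusted p below 0.05.

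**Figure D3:**
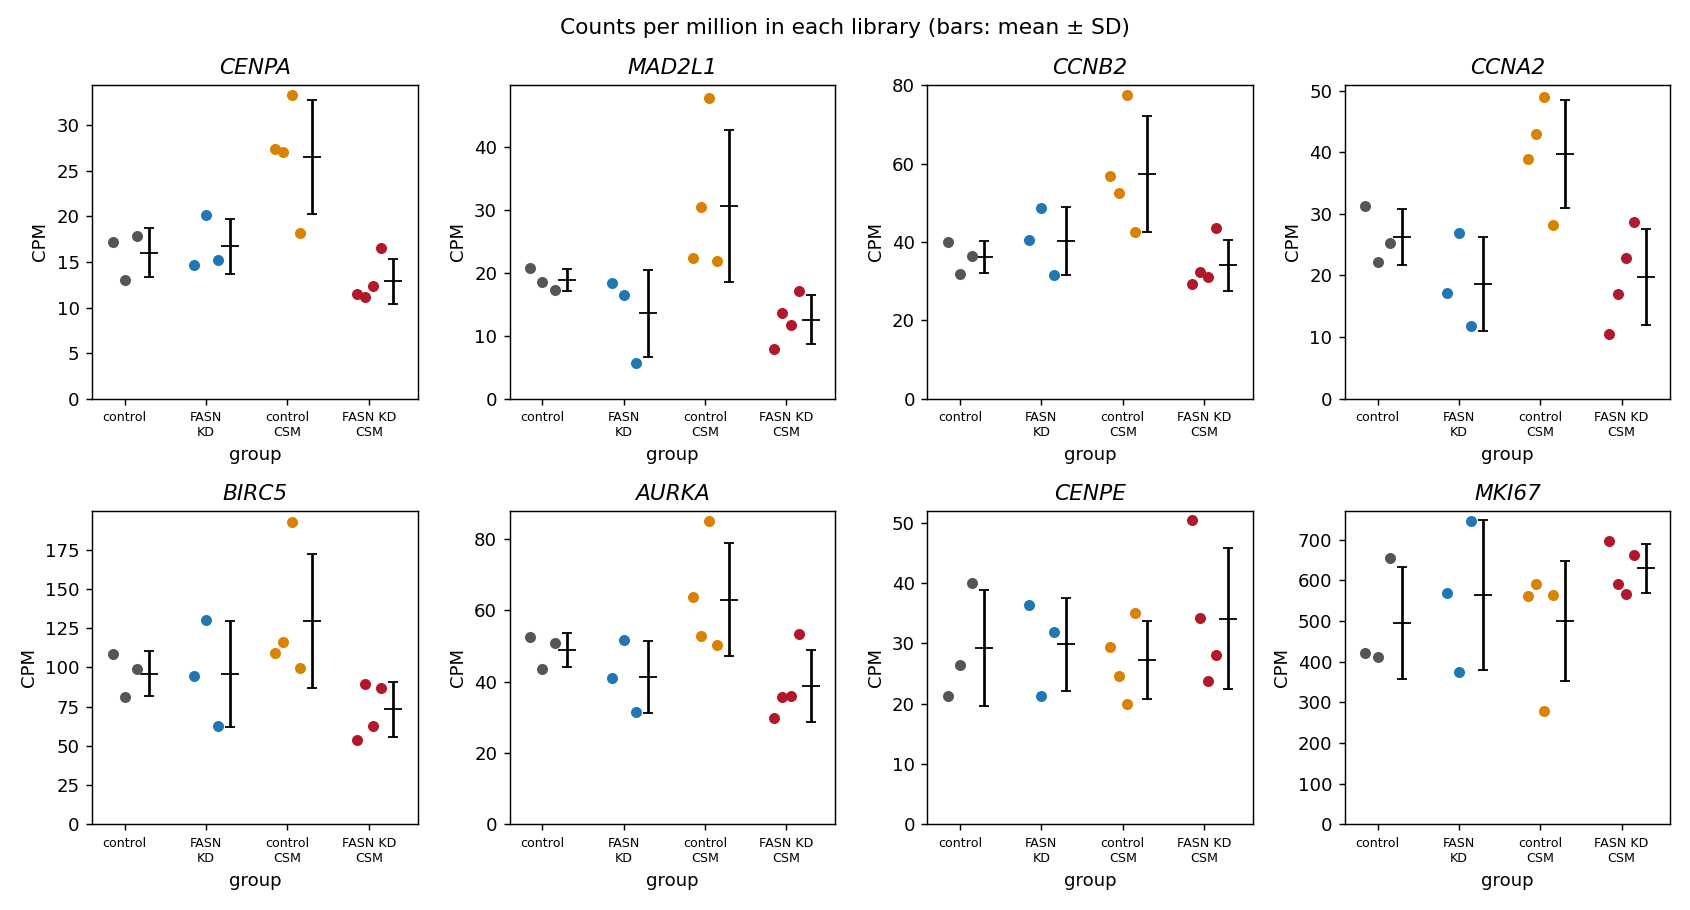
Points are single libraries in CPM, by group, and bars the mean ± SD of the 3 or 4 libraries. Control tumours after CSM are highest in the mean for CENPA, MAD2L1, CCNB2, CCNA2, BIRC5 and AURKA, whereas CENPE and MKI67 have their highest mean in knockdown tumours after CSM.

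In tumours of cells from regular medium, knockdown and control did not separate in these genes. None of the 40 was called, against 0.209% of all genes tested, by edgeR or by DESeq2, and none had an unadjusted p below 0.05, against 9.1% of all genes. The median log2 fold change rounded to 0 (20 genes on each side), beside 0.02 over all genes, while on log2(TPM + 1) 38 of 40 were below 0 with a median of -0.24 against -0.14 for all genes. CDC25C had the smallest p of the 40, with 15.9, 9.32 and 12.6 CPM in control and 13.6, 20.5 and 18.9 CPM in knockdown tumours, a log2 fold change of 0.48 (SE 0.28) and an adjusted p of 0.664 in edgeR's test. CDCA8 was the 1 gene whose groups did not overlap, at 31.7, 28.2 and 30.2 CPM against 35.3, 40.997 and 39.6 CPM, with the knockdown higher, where 4.81% of all genes had such a gap, and no gene had the knockdown lower (7.04% of all genes). Its log2 fold change was 0.36 (SE 0.24). CCNA2 had the largest change in size, at -0.50 (SE 0.35), from 31.2, 22.2 and 25.2 CPM in control and 17.2, 26.9 and 11.8 CPM in knockdown tumours. CDC25B gave 0.31 (SE 0.22) and CDK1 0.01 (SE 0.41), the smallest.

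The always-reported genes were spread about 0 in this comparison. AURKA gave -0.24, CCNB1 -0.16, FOXM1 -0.14, TOP2A -0.11, CDC20 -0.08, BIRC5 -0.01, PLK1 0.09 and MKI67 0.18 on the log2 scale. Knockdown replicate 3 was the low library in 29 genes. CDK1 read 30.9, 27.1 and 8.80 CPM in the 3 knockdown libraries, MAD2L1 18.4, 16.5 and 5.69 CPM and TOP2A 298, 272 and 127 CPM, each lowest in replicate 3, against 18.4, 21.96 and 26.1, 20.8, 18.5 and 17.3 and 194, 238 and 321 CPM in the controls. Without that library the CDK1 value, like those of the other members, remained uncalled, and over the 6 fits that each left out 1 library the median of the 40 genes ran from -0.11 to 0.14.

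In control tumours, 38 of the 40 mitotic genes had a higher fitted level after CSM than from regular medium, and none passed the test. No member was called, and none of the 22435 genes was (0%). In DESeq2 no member was called either, and 5 genes in all were. At an unadjusted p below 0.05, 4 of 40 were higher after CSM, against 0.686% of all genes, and none lower, against 0.718%. The median log2 fold change was 0.36, with 38 of 40 above 0, beside 0.01 over all genes, and 37 of 40 were above 0 on log2(TPM + 1) and 32 of 40 on TPM of protein-coding genes. On both log2(TPM) scales none of the 40 had an unadjusted p below 0.05. In 6 genes the 4 libraries after CSM all lay above the 3 from regular medium, against 1.93% of all genes, and in none did they all lie below (2.16% of all genes). CDCA8 read 31.7, 28.2 and 30.2 CPM from regular medium and 45.2, 52.99, 64.2 and 35.9 CPM after CSM, a log2 fold change of 0.72 (SE 0.23). CENPA gave 0.72 (SE 0.24), CCNB2 0.67 (SE 0.23) and PLK1 0.68 (SE 0.25), all with an adjusted p of 1.00 in edgeR's test, and of these PLK1 had overlapping groups. The other 3 genes without overlap were BUB1, MAD2L1 and UBE2C, with 0.37, 0.70 and 0.39. FOXM1 gave 0.42 (SE 0.22), CDC20 0.70 (SE 0.39), CCNB1 0.43 (SE 0.33), AURKA 0.36 (SE 0.25) and TOP2A 0.13 (SE 0.31), while MKI67 at 0.01 (SE 0.29) and CENPE at -0.10 (SE 0.30) showed no such reading. Leaving out 1 library gave 1 to 9 genes with an unadjusted p below 0.05, the fewest without control replicate 2, and 2 without control after CSM replicate 3. The shares of all genes in these fits are not given here. This comparison and that of knockdown against control after CSM share the 4 control libraries after CSM, so that a high value there enters both.

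In knockdown tumours the readings after CSM and from regular medium overlapped for all 40 genes, where 4.43% of all genes lay apart with CSM higher and 1.47% with CSM lower. None was called or had an unadjusted p below 0.05, against 0% and 6.7% of all genes, and DESeq2 called none. The median log2 fold change was -0.09 with 28 of 40 below 0, beside -0.02 over all genes. On log2(TPM + 1) all 40 were above 0, with a median of 0.86, where that of all genes was 0.59. On log2(TPM + 0.1) the medians were 0.90 and 0.88. In limma's test 16 members were higher at an unadjusted p below 0.05 on the first scale and 17 on the second. The shares of all genes at that p on these scales are not given here, so these counts are not read as a result about the members. NUSAP1 had the smallest p, at 51.6, 53.4 and 42.9 CPM from regular medium and 34.02, 35.1, 36.4 and 45.8 CPM after CSM, a log2 fold change of -0.38 (SE 0.21). CDC25C gave -0.43 (SE 0.26), CENPA -0.37 (SE 0.24), TTK, the largest, -0.55 (SE 0.35), and CDC25B, the smallest, 0.02 (SE 0.21). Over the 7 fits that each left out 1 library the median ran from -0.26 to 0.05, and without the library labelled knockdown after CSM replicate 4 it was -0.12.

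The interaction, the knockdown difference after CSM minus that in regular medium, tests whether the 2 differ. It was called for none of the 40 genes and for none of all genes tested (0%) in edgeR, and for no member in DESeq2. At an unadjusted p below 0.05, 6 of 40 were below 0, against 2.03% of all genes, and none above, against 3.2%. They were CENPA at -1.10 (SE 0.34), CCNB2 at -0.91 (SE 0.33), CDCA8 at -0.85 (SE 0.32), NUSAP1 at -0.76 (SE 0.29), CDC25C at -0.94 (SE 0.37) and PTTG1 at -0.76 (SE 0.35), each with an adjusted p of 0.942. The median was -0.46 with 36 of 40 below 0 (51.8% of all genes), and on log2(TPM + 1) it was 0.61 with 2 below 0, beside 0.57 for all genes. Leaving out 1 library gave 2 to 9 such genes, 2 without control replicate 2 and 3 without control after CSM replicate 1. Without the 2 libraries over 15% 7SL there was 1 and the median was -0.12, and on both log2(TPM) scales there was none. Without the library labelled knockdown after CSM replicate 4 there were 7 and the median was -0.46. For these counts with libraries left out the shares of all genes are not given here. A difference between the knockdown effects in the 2 media therefore did not pass the test for any of the 40 genes.

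Other cell cycle genes mostly had fold changes of the same sign after CSM. Apart from the CDK inhibitors, given further below, the medians of these lists were nearer to 0 than that of the 40. Of 58 other G2/M and cytokinesis genes none was called, 11 were lower at an unadjusted p below 0.05 and none higher, and 50 were below 0 with a median log2 fold change of -0.34 between knockdown and control. Over all genes tested 1.2% were called, 9.34% were lower and 9.19% higher at that p, and 49.6% were below 0. PIMREG had the smallest p among them, at -1.03 with an adjusted p of 0.0719 in edgeR's test. Of 50 genes of G1/S and DNA replication, 5 were lower and 1 higher at that threshold, 44 were below 0, and the median was -0.24, so that the share lower at that p (10%) was near that of all genes. The 17 anaphase-promoting complex subunits had a median of -0.39 with 2 lower, the 18 condensin and cohesin subunits -0.24 with 3 lower, and the 15 genes of DREAM, MuvB and B-MYB -0.26 with 1 lower, counts of few genes beside the same 9.34%. In control tumours after CSM against regular medium, 54 of 58 other G2/M genes and 46 of 50 G1/S genes were above 0, with medians of 0.22 and 0.25. No gene of these lists was called in either comparison. As for the 40 genes, the direction between knockdown and control turned on log2(TPM + 1), where 53 of 58 other G2/M genes and 48 of 50 G1/S genes were above 0, with medians of 0.33 and 0.44 beside 0.39 over all genes.

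CDKN1A and the p53 target list were high in 3 libraries from 3 groups. CDKN1A, the p53-induced CDK inhibitor p21, read 64.4, 44.6 and 24.1 CPM in control, 40.9, 55.99 and 315 CPM in knockdown, 234, 55.4, 61.8 and 34.1 CPM in control after CSM and 139, 19.7, 56.5 and 56.97 CPM in knockdown tumours after CSM. It was thus high in knockdown replicate 3, control after CSM replicate 1 and knockdown after CSM replicate 1. The mean log2(CPM + 1) over the p53 target list was 5.51, 5.44 and 5.25 in these 3 libraries and 4.13 to 4.71 in the other 11. Knockdown replicate 3 and knockdown after CSM replicate 1 are also libraries with low mitotic genes, at 5.48 and 5.65, while control after CSM replicate 1 read 6.09. Low mitotic genes without high p53 targets were also seen. Knockdown after CSM replicate 3 read 5.64 with a p53 target mean of 4.15, and control replicate 2 read 5.72 with 4.36. The part of the p53 targets in the group differences was not tested. All 6 CDK inhibitors tested were below 0 between knockdown and control after CSM (median -0.51, 3 lower at an unadjusted p below 0.05, against 49.6% and 9.34% of all genes), and 4 of 6 above 0 on log2(TPM + 1), none called.

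**Figure D4:**
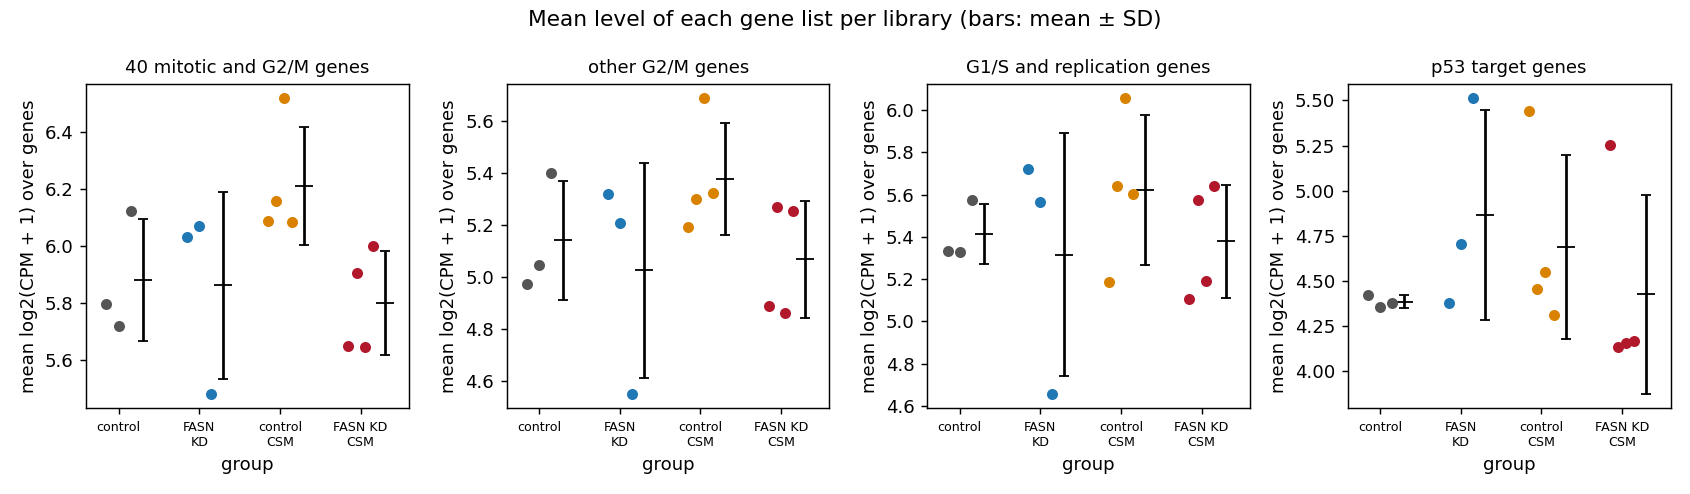
Points are single libraries and bars the mean ± SD of each group, for the mean log2(CPM + 1) over the 40 mitotic genes, 58 other G2/M genes, 50 G1/S and replication genes and 26 p53 targets. Each panel has its own axis, which does not start at 0. For the 40 genes the 4 control libraries after CSM (6.08 to 6.52) lie above the 4 knockdown libraries after CSM (5.64 to 6.00), and in the p53 panel 3 libraries from 3 groups lie at 5.25 to 5.51.

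Fold changes are described here against mean transcript length, weighted by TPM over all annotated transcripts of a gene, noncoding ones included. For some genes this length differs from that of the transcripts that held most counts. BUB1B, among the 10 shortest, stood at 1272 bases, with 70.0% of its counts on a transcript of 3669 bases. MAD2L1 stood at 1774 bases, with 74.2% of its counts on a transcript of 5227 bases. Across the 40 genes, which share libraries and so are not independent, the log2 fold change of knockdown against control after CSM had a Pearson r of 0.51 with log2 mean transcript length (Spearman 0.45). The 10 longest genes, of at least 2952 bases, had a median of -0.16 and the 10 shortest, of at most 1400.3 bases, -0.58. In control tumours after CSM against regular medium the sign was turned, with an r of -0.47 (Spearman -0.41) and medians of 0.17 and 0.41, and between knockdown and control in regular medium r was -0.02. Among the longest genes are MKI67, CENPE, CENPF and ASPM, and 3 of these are among the 4 genes with a fold change above 0 after CSM. Per library, the mean log2(CPM + 1) of the 10 longest genes minus that of the 10 shortest was 1.35, 1.33, 1.199 and 1.65 in control tumours after CSM and 2.07, 1.92, 1.54 and 1.53 in knockdown tumours after CSM, and the 2 groups overlapped. The part of length in the group difference was not tested.

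**Figure D5:**
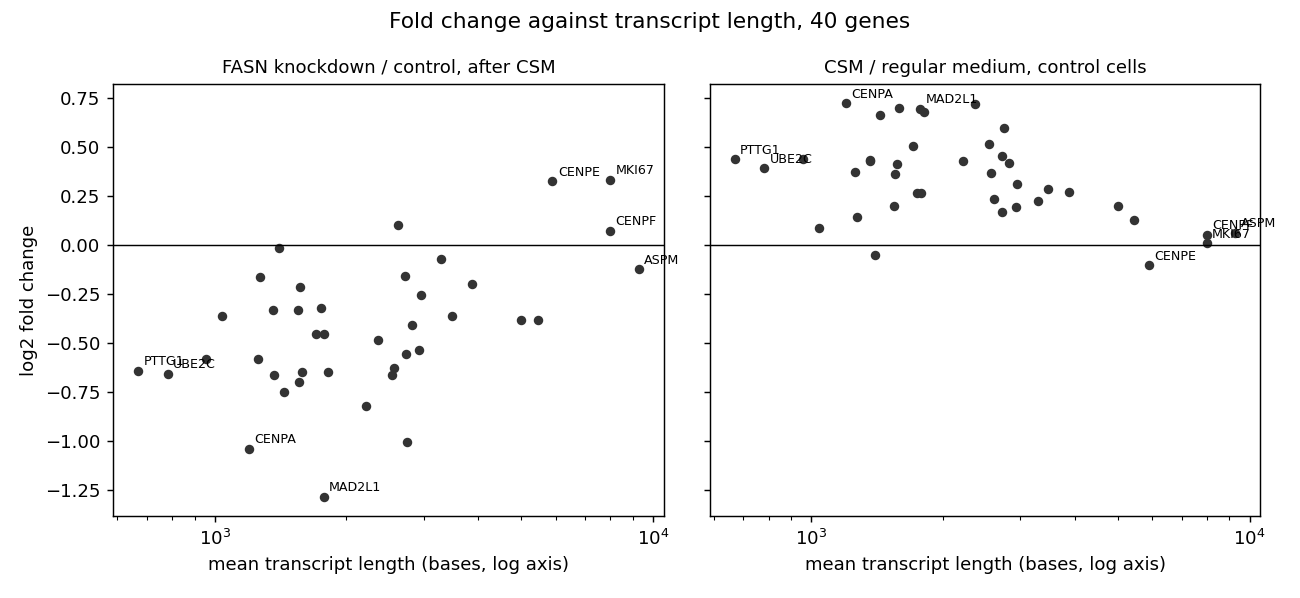
Each point is 1 of the 40 genes, with its TPM-weighted mean transcript length in bases on a log axis and its log2 fold change, for FASN knockdown over control after CSM (left) and CSM over regular medium in control cells (right). On the left ASPM, CENPF, MKI67 and CENPE, the longest, lie near or above 0, while the next longest, TOP2A and KIF11, both lie at -0.38 (r = 0.51). On the right ASPM, CENPF, MKI67 and CENPE lie near 0 while most shorter genes lie above it (r = -0.47).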

How the data were processed

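Total RNA from frozen xenograft tissue was sequenced, and the deposited Salmon output lists 252048 human transcripts per library, with expected counts (not normalised) and TPM as the authors' units, per the file headers. The submitters' processing notes name FastQC, cutadapt, Salmon and GRCh38, without versions or annotation release. The deposited expected counts were summed per gene symbol and rounded. Total depth was 15810287 to 45209466 counts. Because Salmon splits reads among similar transcripts, near-identical genes share counts.

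Groups and replicate numbers came from the sample titles. The tests were edgeR 4.0.16 quasi-likelihood fits (R 4.3.3, TMM, filterByExpr with a minimum count of 10 and minimum total of 15), in a single fit of all 14 libraries with a coefficient per group (10 residual degrees of freedom, biological coefficient of variation 0.44). Calls were made at a Benjamini-Hochberg adjusted p below 0.05 over the 22435 genes tested. "Unadjusted p" and "adjusted p" without a tool are from this test, and CPM use TMM-scaled totals. Whether libraries of 1 group came from separate animals is not in the labels, so the p-values reflect spread among libraries that could be technical. The edgeR step was checked on simulated counts.

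The members, their roles and the lists (other G2/M and cytokinesis genes, anaphase-promoting complex, condensin and cohesin, DREAM and MuvB, G1/S, CDK inhibitors, p53 targets, host and urothelial markers) were chosen with earlier results of these data known. The rule for named genes took called members, the 4 with the smallest p and those with the largest and smallest change per comparison, the genes highest and lowest in TPM, and MKI67, TOP2A, CCNB1, CDK1, PLK1, AURKA, CDC20, BIRC5 and FOXM1. Other members are described by role after their values were seen. Alternatives were other scaling factors, filters and tools (DESeq2 1.42.0, limma 3.58.1 on log2(TPM + 1) or log2(TPM + 0.1)), 7SL share as covariate, libraries left out, and, chosen after seeing the data, TPM rescaled to protein-coding genes.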

Additional observations from a re-analysis of the deposited data

Results flagged for a closer look

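In groups of 4 libraries, 5 of 84 checks found a library farther from the others than Dixon's 95% limit, where chance alone flags about 1 group in 20. Control after CSM replicate 3 accounts for 3 of the 5. CDK1 read 47.4 CPM there against 18.6 to 20.5 CPM in the other 3 libraries of the group, and AURKB 88.4 CPM against 50.4 to 56.0 CPM. MKI67 was low in that library, at 279 CPM against 562 to 592 CPM. The same library holds 16.3% 7SL, whose part in these values was not tested. ESPL1 read 75.2 CPM in control after CSM replicate 4 against 98.8 to 103 CPM in the rest of its group. CDCA8 read 48.5 CPM in the library labelled FASN knockdown after CSM replicate 4, which also carries FASN at control level, against 30.2 to 32.2 CPM in the other 3 knockdown libraries.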

How the results depend on the processing

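Scale changed the direction of several results. Pairs of values are log2 fold changes on log2(TPM + 1) and log2(TPM + 0.1), followed by any other setting named. Between knockdown and control after CSM the median of the 40 genes was 0.32 and 0.34, with 0.028 on TPM of protein-coding genes and -0.23 with 7SL as a covariate. The medians of all genes in these fits were 0.39, 0.63, 0.19 and 0.004. For CSM in knockdown tumours the median of the 40 was 0.86 and 0.90, with 0.27 under the 7SL covariate, beside 0.59, 0.88 and 0.036 for all genes. For the interaction it was 0.61 and 0.65, with -0.011 on coding TPM, -0.13 with the covariate and -0.12 without the libraries over 15% 7SL. The medians of all genes for the interaction were 0.57, 0.91, 0.20, 0.044 and -0.005 in the same order. Single genes changed sign likewise. Between knockdown and control in regular medium these were CDC25B (-0.043 and -0.047) and CDK1 (-0.45 and -0.51, covariate -0.33), and after CSM BUB3 (0.55 and 0.56, coding TPM 0.25) and FASN (0.19 and 0.19). For CSM in knockdown tumours they were CDC25C (0.37 and 0.44), CENPA (0.50 and 0.55), NUSAP1 (0.94 and 0.98, coding TPM 0.25) and TTK (0.52 and 0.55, covariate 0.16), and for the interaction CCNB2 (0.10 and 0.12), CDCA8 (0.16 and 0.18), ESPL1 (1.03 and 1.09, coding TPM 0.42) and NUSAP1 (0.55 and 0.59). Sign changes of uncalled values within 1 SE of 0 in both fits were not counted. After CSM, 0 members were called with upper-quartile factors, protein-coding genes alone, all 3 TPM fits, the replicate block and without the libraries over 15% 7SL. With a library left out, 0 to 1 were called. DESeq2 called 4, where it called 1455 of 22435 genes, and the fit without the filter called 4, where it called 1164 of 43004. The FASN call in regular medium was lost at -1.88 and -1.96 on TPM, -1.59 on coding TPM, -1.92 with only the compared groups, -1.94 with the replicate block, -1.84 without the libraries over 15% 7SL and -2.07 to -1.73 with a library left out. The cause was not tested. TTTGAA was found in 42.9% of the 42 windows over the 200 bases before the start and TTTGAA or either of its variants (TTCGAA and also TTTAAA) in 81.0%, against 59.5% for TTTGAA in the main window. The median share of members' counts on protein-coding transcripts was 94.8%, and 82.0% of TPM.

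Pairing of the libraries by replicate number was not seen, in a check that cannot exclude it with 3 or 4 libraries per group. Deviations of same-numbered libraries correlated between -0.19 and 0.31 over 13 pairs, and 3 of 13 correlated best with their own number. With the replicate block the adjusted p of CENPA after CSM was 0.140 in edgeR's test, so that no member was called.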

Other observations

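The transcripts behind the summed counts differed between members. Counts fell on protein-coding transcripts for over 90% in 26 of the 40 genes and for under 75% in 6. CCNA2 has a single annotated transcript. CENPA counts lay for 67.2% ± 17.4 (SD, n = 14) on CENPA-202 and for 17.4% ± 10.6 on CENPA-201, both coding. MAD2L1 had 74.2% ± 11.7 on its coding transcript MAD2L1-201 and 14.9% ± 5.57 on MAD2L1-202, annotated as a target of nonsense-mediated decay. BUB1B had 70.0% ± 13.6 on the coding BUB1B-201 and 14.97% ± 10.3 on BUB1B-209, also a decay target.

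PTTG1 was split in another way from library to library. Its coding transcript PTTG1-201, of 715 bases, took between 0% and 92.2% of the gene's counts, and PTTG1-204, of 670 bases with no defined coding sequence, between 0% and 74.3%. PTTG1-201 held over 80% in control replicate 1, control after CSM replicates 1 and 2 and FASN knockdown after CSM replicates 3 and 4, and 0% in knockdown after CSM replicate 2. The split did not follow the groups, and the gene's summed level is the only PTTG1 value used in the comparisons.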
